A study of Mus musculus with 18 samples.

Results

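Eif4a1 (ENSMUSG00000059796.16) was examined as 1 gene of the 19417 genes with a count in ribose oxidation sequencing (RibOxi-seq) of 4T1 mouse mammary carcinoma cells. It comprised all 1071 positions of the 1825851 listed that carry its name, and it lies at chr11:69666936-69672423 on the minus strand of GRCm38. The gene and a single high base within it, position 69668844 on chromosome 11, were chosen by their counts over the 9 libraries, so the level of this base is a description and not a finding. Of the 1590 counts of the gene, 167 (10.5%) lay at this base, and the next position held 28. Knockout libraries gave 145 of the 167 counts, so the choice also favored a base that is high in them. The genotype comparisons of this base are therefore not independent of the choice. The base is not marked in the table's mispriming column, which the paper's text does not define.

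RibOxi-seq detects nucleotides that carry a methyl group on the 2′ oxygen of the ribose, because a fragment that ends in such a nucleotide withstands oxidation and can be ligated to a linker. Each count is the 3′ end of a read. The 9 oxidized libraries came from 4T1 WT cells and from the clones Snord67KO-1 and Snord67KO-2, with n = 3 biologic replicates per genotype. Where values of the genotypes are given in a row, they follow the order 4T1 WT, Snord67KO-1, Snord67KO-2, as mean ± SD of n = 3 libraries. All 3 genotypes carried lentiviral mCherry and Renilla luciferase (mCh/rLuc) and were grown under puromycin. Each clone grew from 1 cell after paired Cas9 nicks at Snord67, a box C/D small nucleolar RNA (snoRNA) that guides methylation of U6 small nuclear RNA, so a difference from 4T1 WT cannot be told apart from a difference between single-cell clones. The RNA was poly(A)-enriched. The 9 control libraries that were not oxidized were not analysed here, so ends that were not selected by oxidation could not be subtracted.

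Eif4a1 encodes eIF4A1, a DEAD-box RNA helicase that unwinds structured leaders of mRNAs as part of the cap-binding complex eIF4F. Vertebrate genes of this kind also host snoRNAs, which are released from spliced introns. Box C/D snoRNAs guide 2′-O-methylation with a stretch directly upstream of a D box, and H/ACA snoRNAs guide pseudouridylation. Mature snoRNAs have no poly(A) tail.

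In GENCODE M21, 3 snoRNAs lie inside Eif4a1, and the high base falls directly behind one of them. Gm25835 (ENSMUSG00000089542.1) occupies 69668852 to 69668995 in intron 5, so the high base lies 8 bases past its annotated 3′ end, 234 bases after exon 5 and 91 bases before exon 6. Gm22988 (ENSMUSG00000084708.1) lies in intron 4 and Gm24029 (ENSMUSG00000065862.1) in intron 9. The sequences are shown from the GENCODE transcripts because they identify the class of each RNA. Capitals mark the C box (TGATGA) and D box (CTGA) of Gm25835, shown whole, and the ACA motif in the last 30 bases of the others.
Gm25835: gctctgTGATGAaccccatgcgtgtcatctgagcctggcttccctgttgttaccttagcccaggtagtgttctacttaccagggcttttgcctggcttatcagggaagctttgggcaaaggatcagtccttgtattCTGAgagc
Gm22988: ccaaagctgtttcatgcctagggcACAtaa
Gm24029: tcctttgccctcctctggctgcctACAtgt
By these motifs Gm25835 is box C/D-like, as are 298 of the 1507 annotated snoRNAs, and the other two are H/ACA-like, as are 297 of the 1507. In humans the same gene hosts the box C/D snoRNA SNORD10.

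Gm25835 holds a stretch of 10 bases, tgcgtgtcat, directly upstream of an internal CTGA, that is complementary to positions 73 to 82 of U6 counted from 1 at its 5′ end. The base 5 upstream of that CTGA faces C77 of U6. In the U6 stretch from position 68 to 87, read from Rnu6, the capital marks C77.
U6: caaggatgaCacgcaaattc
Among the 1507 annotated snoRNAs, 1 holds this complement, which is Gm25835. The match is a description of the letters and gives no measurement of guiding.

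The high base had 4, 11 and 7 counts in 4T1 WT replicates 1 to 3. Snord67KO-1 had 35, 23 and 55 counts there, and Snord67KO-2 had 12, 12 and 8. Per 1000000 counts of the library (CPM), this was 5.43, 17.2 and 11.2 in 4T1 WT, against 52.0, 46.8 and 80.1 in Snord67KO-1 and 56.5, 32.5 and 18.9 in Snord67KO-2. All 6 knockout libraries lay above the 3 WT libraries, although the lowest Snord67KO-2 library was close to the highest WT library. The genotypes averaged 11.3 ± 5.90, 59.6 ± 17.9 and 36.0 ± 19.0 CPM. Of the 2092 positions that reached 10 counts in 3 or more libraries, 20 (0.956%) separated the genotypes in this direction. This base was the single Eif4a1 position to pass that filter. All 3 Snord67KO-1 libraries had at least 10 counts, as did 2 Snord67KO-2 libraries and 1 WT library, so it would not have passed on the WT libraries alone.

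**Figure D1:**
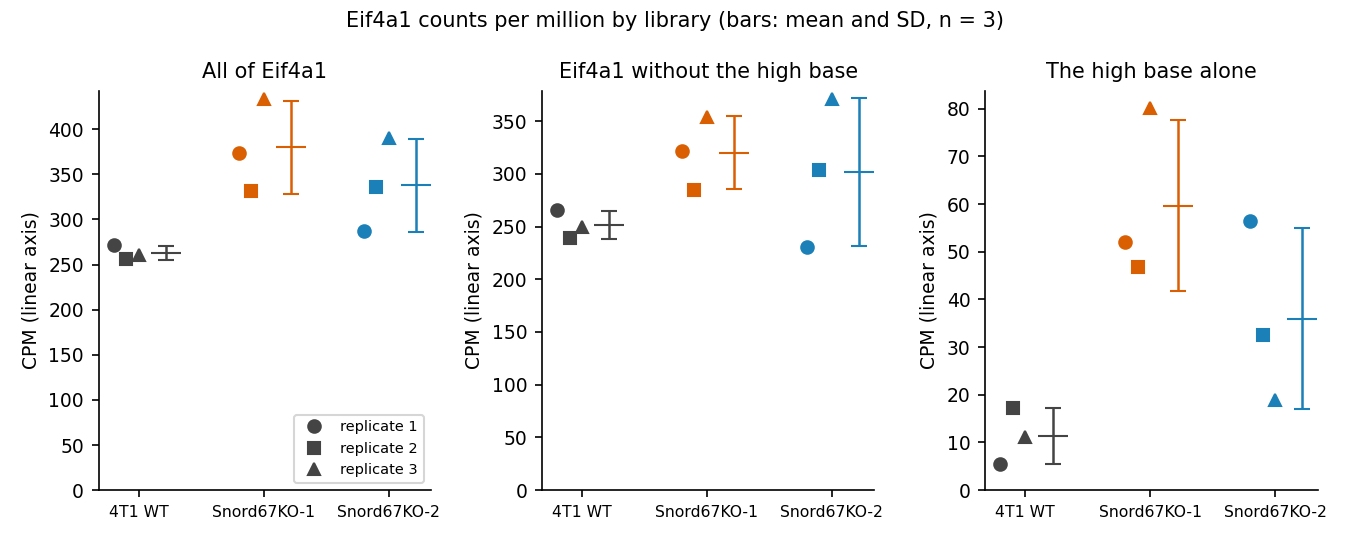
CPM (linear axes from 0) for all of Eif4a1, for Eif4a1 without the high base and for the high base alone, with 1 point per library and bars for the mean and SD (n = 3). The high base sits at 5.43 to 17.2 CPM in 4T1 WT and at 18.9 to 80.1 CPM in the knockout libraries, whereas the rest of the gene overlaps between genotypes.

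By edgeR's quasi-likelihood test over all 2092 positions, the base was not called. Compared with 4T1 WT, the average of both clones had a log2 fold change of 2.43 ± 0.54 (SE; Benjamini-Hochberg adjusted p = 0.323 with edgeR, unadjusted p = 0.000925). It was 2.79 ± 0.58 for Snord67KO-1 (adjusted p = 0.197 with edgeR) and 2.08 ± 0.60 for Snord67KO-2 (adjusted p = 0.381 with edgeR). The test called 1 position (0.0478%) in each of these comparisons, which was not in Eif4a1. By p for the average, the base ranked 6 of 2092, and 0.239% of the positions had a log2 fold change at least as high. These ranks are descriptions, since the base was chosen by counts that came mostly from knockout libraries. The call depends on the tool, since DESeq2 gave a log2 fold change of 2.30 with an adjusted p of 0.00767 for the average, among 14 calls, and of 2.69 with an adjusted p of 0.00546 for Snord67KO-1. For Snord67KO-2, DESeq2 gave the base no adjusted p. For Snord67KO-2 against Snord67KO-1 the log2 fold change was -0.71 ± 0.55 (95% interval -1.93 to 0.51; adjusted p = 0.873 with edgeR). Between the clones edgeR called 0 of the positions (0%), with 53 at an unadjusted p under 0.05, and DESeq2 called 1.

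A count depends on how much of the RNA was present and on its methylation, so the base was also set against the rest of the gene. That rest lay mostly in exons, with 1367 counts there against 56 in the introns without the base. It does not measure the amount of the intronic RNA that carries the base. Shares and ratios to this rest therefore do not separate that amount from methylation. It took 2.00%, 6.71% and 4.29% of the Eif4a1 counts in 4T1 WT replicates 1 to 3. The shares were 13.9%, 14.1% and 18.5% in Snord67KO-1, and 19.7%, 9.68% and 4.85% in Snord67KO-2. Snord67KO-1 stood above every WT library, whereas Snord67KO-2 replicate 3 lay between the WT libraries. The exact 95% binomial interval was widest in Snord67KO-2 replicate 1, from 10.6% to 31.8% with 12 of 61 counts. Such intervals cover counting error only. The mean share was 4.33% ± 2.35 (SD, n = 3) in 4T1 WT and 13.4% ± 5.52 (SD, n = 6) in the knockout libraries. This difference of 9.11 percentage points had p = 0.0476 by a two-sided exact permutation test, with 0.0238 as the smallest p that the test allows, and p = 0.571 after adjustment over the 12 share comparisons. With 1 library left out, the unadjusted p of the permutation test ran from 0.0357 to 0.143. The base was chosen by counts that came mostly from knockout libraries, so these p-values are descriptions.

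**Figure D2:**
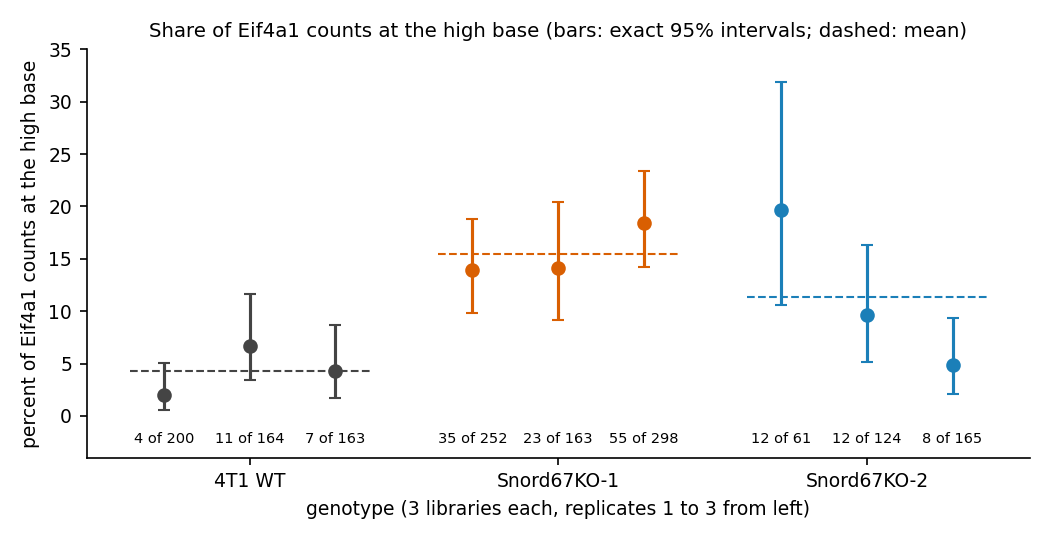
Percent of the Eif4a1 counts at the high base in each library (linear axis), with exact 95% binomial intervals, the counts behind each share and dashed lines for the genotype means. The Snord67KO-1 libraries sit between 13.9% and 18.5%, the WT libraries between 2.00% and 6.71%, and the Snord67KO-2 libraries spread from 4.85% to 19.7%.

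With the rest of the gene as an offset, the log2 ratio of the base was 1.73 ± 0.57 (SE) higher in the average of both clones (adjusted p = 0.266 with edgeR, unadjusted p = 0.0128). For Snord67KO-1 it was 2.02 ± 0.61 and for Snord67KO-2 1.44 ± 0.64. In this test 0 of 2051 positions (0%) were called in any comparison, with 361 below an unadjusted p of 0.05 for both clones together, 111 for Snord67KO-1, 355 for Snord67KO-2 and 43 between the clones. No other tool was run on this ratio. The median log2 ratio over all these positions was -0.46 for the average, so the value of the base stands against a background below 0.

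The Nm score divides the count at a base by the mean of its neighbors, with 0 counts set to 1. Both bases next to the high base had 0 counts in every library, so its Nm score equals its count, and the score does not correct for library depth. On the log2 scale the score was 1.51 ± 0.45 (SE) higher in the average of both clones (adjusted p = 0.368 with limma), 2.39 ± 0.52 in Snord67KO-1 and 0.63 ± 0.52 in Snord67KO-2. Between the clones the log2 score was 1.75 lower in Snord67KO-2, whose libraries were shallower (adjusted p = 0.525 with limma). None of 2092 positions (0%) was called with limma in any comparison, with 275, 58, 465 and 144 below an unadjusted p of 0.05 for both clones together, Snord67KO-1, Snord67KO-2 and the difference between clones. No other tool was run on the score.

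Around the high base few other ends were seen. Within 10 bases on either side, 1 other position was listed, 69668846, with 5 counts over the 9 libraries. The interior of Gm25835 held 4 counts, 3 of them in 4T1 WT, while the 30 bases after its end held 172. Intron 5 without the high base had 11 counts over 323 bases, or 3.41 counts per 100 bases. Among 1507 annotated snoRNAs, the high base was the highest single position within 30 bases of a 3′ end. The base was chosen for its counts, so this rank is a description and not a test. For the 297 other box C/D-like snoRNAs, 80 of 2121 counts in that window (3.77%) lay after the annotated end. For Gm25835 it was 172 of 173 (99.4%), of which the chosen high base alone gave 167. At 8 bases past the end, these other snoRNAs had 2 counts in all. The pooled percent rests on the 70 of the 297 that had counts. Of the 23 with a top position of 5 or more counts, 3 had it after the end. The H/ACA-like Gm24336 had all of its 12 counts in the window at 10 bases past its end. The second highest position near a 3′ end had 105 counts and lay 8 bases before the end of Gm22357 in Gas5.

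**Figure D3:**
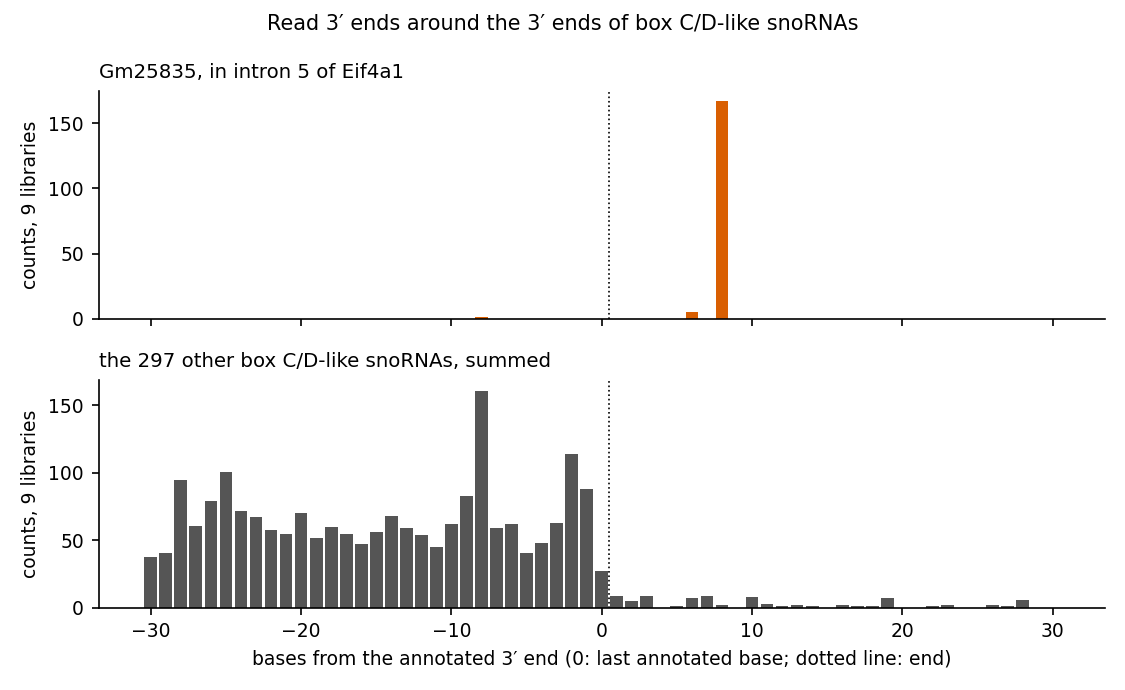
Counts over the 9 libraries (linear axes) by distance from the annotated 3′ end, for Gm25835 above and for the 297 other box C/D-like snoRNAs summed below. The counts of Gm25835 stand in 1 bar of 167 counts at 8 bases past the end, which is the base chosen for its counts. Those of the other snoRNAs lie mostly before the end.

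The other snoRNAs of the gene gave few ends. Gm22988 had 19 counts, of which 3 came from 4T1 WT libraries, 14 from Snord67KO-1 and 2 from Snord67KO-2. Gm24029 had 4 counts. No position of either passed the filter, and at this depth a difference between genotypes was not detectable for Gm24029. With the high base left out, the share of counts outside the exons of any Eif4a1 transcript was 0.863% ± 0.748, 0.803% ± 0.394 and 0.935% ± 0.956 by genotype. These shares rested on 4, 5 and 4 counts (two-sided exact permutation test, p = 1 for 4T1 WT against the 6 knockout libraries). The introns of the coding transcript without the high base held 18, 26 and 12 counts. Most ends in those introns therefore lay in exons of other transcripts of the gene and did not enter these shares. Replicate 1 of 4T1 WT had 0 of 196 counts, which allows a share of up to 1.53%, and replicate 1 of Snord67KO-2 had 0 of 49, which allows up to 6.12%.

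**Figure D4:**
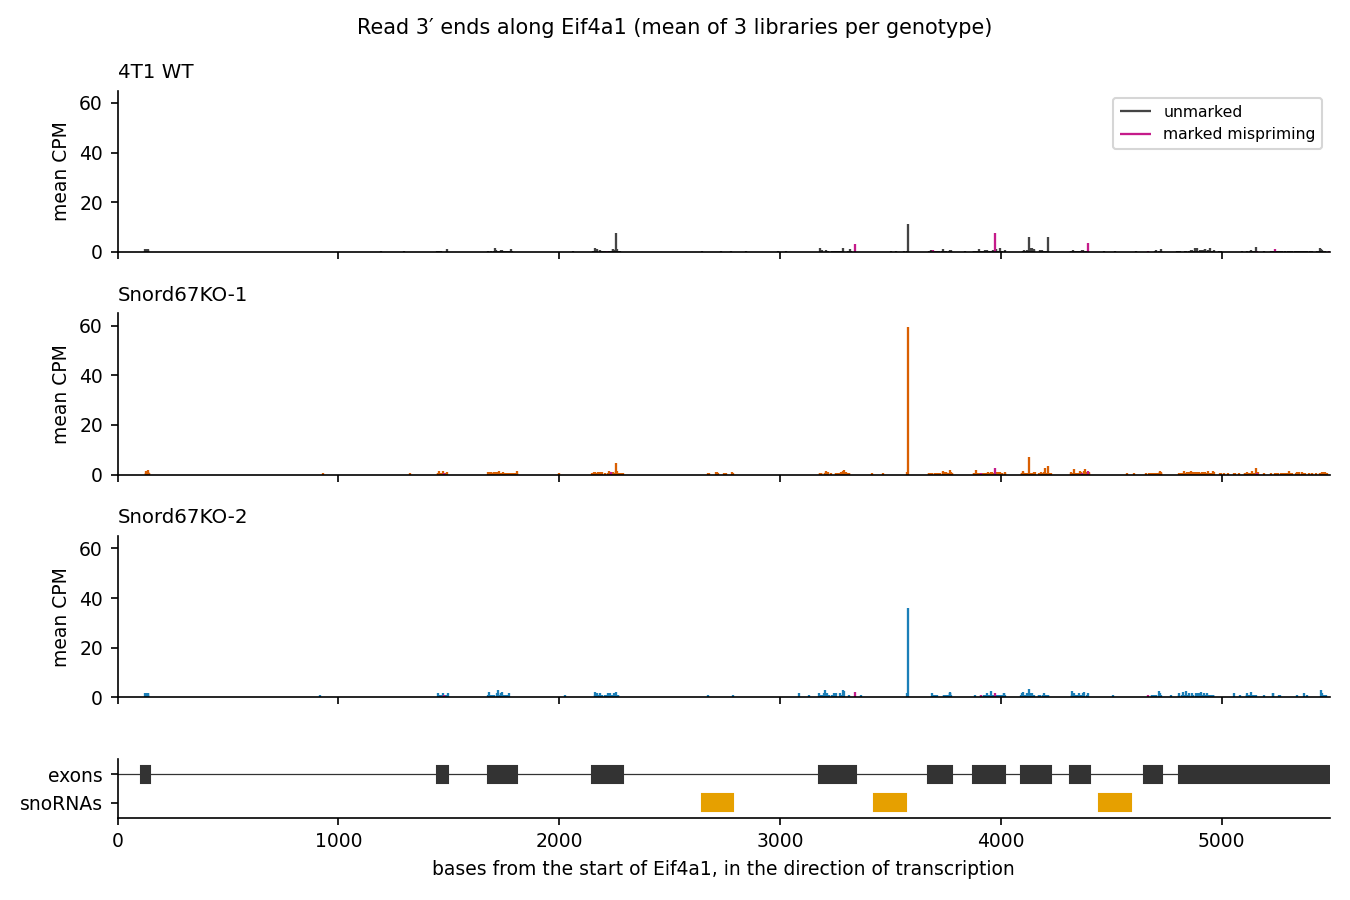
Mean CPM of 3 libraries at each Eif4a1 position by distance from the start of the gene, 1 panel per genotype on the same linear axis, with exons and snoRNAs drawn below. The tallest line stands in an intron at the end of the second snoRNA, at 11.3, 59.6 and 36.0 CPM from the top panel down, and the remaining counts spread over the exons.

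Outside the high base, the counts lay mostly in the exons. The 11 exons of the coding transcript, 1774 bases in all, held 1367 counts, or 77.1 per 100 bases, against 1.55 per 100 bases in the introns without the high base. The coding sequence had 95.2 counts per 100 bases and the 3′ UTR 38.3. Of the positions with a count, 452 of 778 had a single count and 30 had 5 or more. Exonic ends lay at A in 30.6% of the counts and at G in 18.0%, whereas the transcript is 26.0% A and 25.8% G.

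The Eif4a1 total was similar in the WT libraries and higher in each knockout library, but it did not pass the test. It was 271, 257 and 261 CPM in 4T1 WT. The totals were 374, 331 and 434 CPM in Snord67KO-1 and 287, 336 and 389.8 CPM in Snord67KO-2. All 6 knockout libraries lay above all WT libraries, which was the case for 4.34% of the 6295 genes tested. The log2 fold change of the total was 0.48 ± 0.18 (SE) for the average of both clones (adjusted p = 0.101 with edgeR), 0.39 ± 0.21 for Snord67KO-1 (adjusted p = 0.213 with edgeR) and 0.57 ± 0.21 for Snord67KO-2 (adjusted p = 0.159 with edgeR). Without 4T1 WT replicate 2 it was 0.31 for the average and 0.22 for Snord67KO-1. Over all genes edgeR called 11.5% for the average, 18.0% for Snord67KO-1, 3.11% for Snord67KO-2 and 3.84% between the clones. Between the clones, Eif4a1 had a log2 fold change of 0.18 ± 0.21 (95% interval -0.27 to 0.62; adjusted p = 0.730 with edgeR), and it turned to -0.21 when library totals were used without TMM.

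The high base made up part of that difference. Without it the 4T1 WT libraries had 266, 239 and 249.6 CPM. Those of Snord67KO-1 had 322, 285 and 354 CPM, and those of Snord67KO-2 had 231, 304 and 371 CPM. The genotypes then overlapped, since Snord67KO-2 replicate 1 was the lowest of the 9 libraries. The log2 fold change was then 0.34 ± 0.19 (SE) for the average (adjusted p = 0.258 with edgeR), 0.21 ± 0.21 for Snord67KO-1 (adjusted p = 0.548 with edgeR) and 0.47 ± 0.22 for Snord67KO-2 (adjusted p = 0.255 with edgeR). Without 4T1 WT replicate 2 it was 0.15 for the average and 0.02 for Snord67KO-1. The exons of the coding transcript averaged 243 ± 12.2, 306 ± 32.4 and 291 ± 65.4 CPM by genotype.

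The highest exonic positions drew many of their counts from 1 WT library. After the positions marked mispriming, over all genes, the most frequent 6 bases in annotated transcripts were CTGTAG. The 5 exonic Eif4a1 positions with most counts are shown from the coding transcript, as the letters up to and including the counted base, the next 6 bases in capitals, and 4 more.
69668295: acttgtatgagacgCTGACCatca
69670165: cactcaggctttggTTCTGGcacc
69668447: aggaagaattgaccCTGGAGggta
69668210: tgcccgagatttcaCTGTTTctgc
69668028: taattaccactgacCTGTTGgcca
The next 5 exonic positions held 9, 8, 8, 7 and 6 counts. The positions shown held 28, 25, 22, 19 and 10 counts in the coding sequence of exons 8, 4, 7, 8 and 9. In the same order 3, 3, 5, 4 and 5 of the capital letters match CTGTAG, and 69668447 and 69668028 are marked mispriming. In 4T1 WT replicate 2 these positions had 9, 12, 11, 8 and 7 counts, and none of them had more than 7 in any other library. In that library 69670165 exceeded the high base by 1 count.

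Positions marked mispriming held 5.08%, 17.8% and 2.57% of all counts in 4T1 WT replicates 1 to 3, so replicate 2 was high library-wide. They held 4.95%, 7.22% and 1.43% of all counts in Snord67KO-1, and 1.38%, 2.06% and 3.46% in Snord67KO-2. Of the Eif4a1 counts, marked positions held 3.00%, 15.9% and 3.07% in 4T1 WT. The shares were 2.78%, 3.07% and 0.671% for Snord67KO-1, and 0%, 0.806% and 4.24% for Snord67KO-2, so the genotypes overlapped. The 0 of 61 counts in Snord67KO-2 replicate 1 allow a share of up to 4.92%. The mean difference between the knockout and WT libraries was -5.38 percentage points (two-sided exact permutation test, p = 0.167, 0.6 after adjustment over the 12 share comparisons), and it was -1.11 without 4T1 WT replicate 2. Exonic positions followed by at least 4 matches to CTGTAG took 24.2% of the exonic counts in 4T1 WT replicate 2 and 3.36% to 8.47% in the other libraries, where 3.45% of the bases of the transcript have such a match. With marked positions left out of the gene total, the knockout libraries had a share of the high base 8.83 percentage points higher (p = 0.0476 before adjustment, two-sided exact permutation test). This comparison, too, is not independent of the choice of the base.

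Eif4a1 works with the other parts of eIF4F and their regulators, and this list of 17 genes was split in direction. The list had 8 genes with a positive and 9 with a negative log2 fold change for the average of both clones, with a median of -0.06 against -0.05 over all genes. No gene of the list was called for the average, by edgeR or DESeq2, where edgeR called 11.5% of all genes. An unadjusted p under 0.05 was reached with edgeR by 2 genes of the list and by 27.4% of all genes. The translational repressor Eif4ebp1, which binds the cap-binding protein eIF4E, averaged 117 ± 88.6, 70.1 ± 42.8 and 37.0 ± 8.36 CPM by genotype. Its log2 fold change was -1.06 ± 0.39 (SE; adjusted p = 0.0857 with edgeR), and it was -0.18 without positions marked mispriming and -0.59 without 4T1 WT replicate 2. It was called without 4T1 WT replicate 3 (adjusted p = 0.0147 with edgeR) and without Snord67KO-1 replicate 2 (adjusted p = 0.0306 with edgeR). The related repressor Eif4ebp2 averaged 17.6 ± 3.76, 11.4 ± 9.41 and 5.74 ± 1.22 CPM, with a log2 fold change of -1.0 ± 0.43 (adjusted p = 0.143 with edgeR, and 0.0363 without Snord67KO-1 replicate 1).

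By clone, 2 genes of this list were called in Snord67KO-1, against 18.0% of all genes. Mknk2, a kinase that phosphorylates eIF4E, was higher in Snord67KO-1 with a log2 fold change of 1.38 ± 0.42 (SE; adjusted p = 0.0312 with edgeR) and had 0.80 ± 0.43 for the average (adjusted p = 0.240 with edgeR). Eif4a2, the close paralog of Eif4a1 and also a snoRNA host, had a log2 fold change of -0.76 ± 0.21 there (adjusted p = 0.0209 with edgeR). DESeq2 called neither, and both calls were lost without TMM, without Snord67KO-1 replicate 1 and without Snord67KO-1 replicate 3. The call of Mknk2 was also lost without 4T1 WT replicate 2 or 3 (adjusted p of 0.0859 and 0.0566 with edgeR), and that of Eif4a2 without 4T1 WT replicate 1 or Snord67KO-1 replicate 2 (0.0588 and 0.0606). Eif4a2 and the other genes called in a single clone are named after their values were seen. In Snord67KO-2 edgeR and DESeq2 called 0 of the 17, where edgeR called 3.11% of all genes, and 3 had an unadjusted p under 0.05, as did 18.8% of all genes. Eif4a2 averaged 201 ± 25.9, 129 ± 2.15 and 215 ± 22 CPM by genotype. Its log2 fold change between the clones was 1.09 ± 0.22 (adjusted p = 0.0121 with edgeR), against 0.18 for Eif4a1. This call was lost without TMM (adjusted p = 0.0949 with edgeR) and when Snord67KO-1 replicate 1, Snord67KO-2 replicate 1 or Snord67KO-2 replicate 2 was left out (adjusted p up to 0.0866 with edgeR). How the authors' counting treated reads shared by the paralogs is not given in the sources used here.

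A list of 25 protein-coding snoRNA hosts was drawn up for translation and snoRNP assembly, and it also holds the chaperones Hspa8 and Hspa9. Of these genes 24 were tested, and Rack1 had 0 counts under that name. For the average of both clones 2 rose and 2 fell, and the median log2 fold change was -0.02. Over all 6295 genes 11.5% were called, 388 higher and 339 lower. Tpt1, the translationally controlled tumor protein, rose by 0.92 ± 0.20 on the log2 scale (SE; adjusted p = 0.00913 with edgeR), with genotype means of 837 ± 41.8, 1993 ± 275 and 1191 ± 89.8 CPM. The constitutive chaperone Hspa8 rose by 0.71 ± 0.18 on the same scale (adjusted p = 0.0198 with edgeR, and 0.0504 without Snord67KO-2 replicate 2), with means of 566 ± 102, 866 ± 122 and 899 ± 81.0 CPM. The mitochondrial chaperone Hspa9 fell by 0.85 ± 0.17 on the log2 scale (adjusted p = 0.00552 with edgeR), with means of 374 ± 58.6, 182 ± 27.1 and 218 ± 19.8 CPM. The ribosomal protein gene Rpl13a had a log2 fold change of -0.63 ± 0.19 (adjusted p = 0.0459 with edgeR, and 0.102 with DESeq2), and its call was lost when any 1 library other than 4T1 WT replicate 3 or Snord67KO-1 replicate 2 was left out (adjusted p of 0.0790 to 0.123 with edgeR). Without TMM the calls of Hspa8 (adjusted p = 0.0520 with edgeR) and Rpl13a (0.111) were lost.

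Among these 24 hosts, 7 were called lower and 1 higher in Snord67KO-1. Over all 6295 genes 18.0% were called there, 486 lower and 648 higher. Of the hosts, 11 were below an unadjusted p of 0.05, as were 31.2% of all genes. The lower calls numbered 2 without Snord67KO-1 replicate 1, 3 without Snord67KO-1 replicate 3, 4 without 4T1 WT replicate 1, 3 without TMM and 3 with DESeq2. In Snord67KO-2, 1 was called higher and 0 lower by edgeR and by DESeq2. Over all genes edgeR called 3.11% there, 149 higher and 47 lower. Of the hosts, 6 were below an unadjusted p of 0.05, as were 18.8% of all genes. Nop56, a core protein of box C/D snoRNPs, averaged 73.2 ± 11.8, 35.7 ± 9.46 and 78.9 ± 3.70 CPM by genotype. Its log2 fold change was -1.19 ± 0.27 in Snord67KO-1 (adjusted p = 0.00601 with edgeR) and 0.31 ± 0.26 in Snord67KO-2 (adjusted p = 0.565 with edgeR). Nop58, its partner in the same particle, had -1.0 ± 0.23 in Snord67KO-1 (adjusted p = 0.00639 with edgeR). The others called lower in that clone were Eif4a2, Eif5, Rpl13a, Ncl and Hspa9, with Tpt1 called higher. Of these calls in Snord67KO-1, those of Tpt1 and Hspa9 held in all 17 alternatives, Nop56 was lost without Snord67KO-1 replicate 3 (adjusted p = 0.0514 with edgeR), and Nop58 was lost without Snord67KO-1 replicate 1 (adjusted p = 0.0518 with edgeR). The call of Eif5 was lost in 4 alternatives, among them without Snord67KO-1 replicate 1 and without Snord67KO-1 replicate 3. The call of Ncl was lost when any 1 library other than 4T1 WT replicate 2 or Snord67KO-1 replicate 3 was left out, and that of Rpl13a when any 1 other than 4T1 WT replicate 3 or Snord67KO-1 replicate 2 was. Both were also lost without TMM and with DESeq2. Hspa8 was the 1 gene called in Snord67KO-2, and this call was lost when any 1 library of that clone was left out (adjusted p of 0.0857 to 0.111 with edgeR) and without TMM (0.143).

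**Figure D5:**
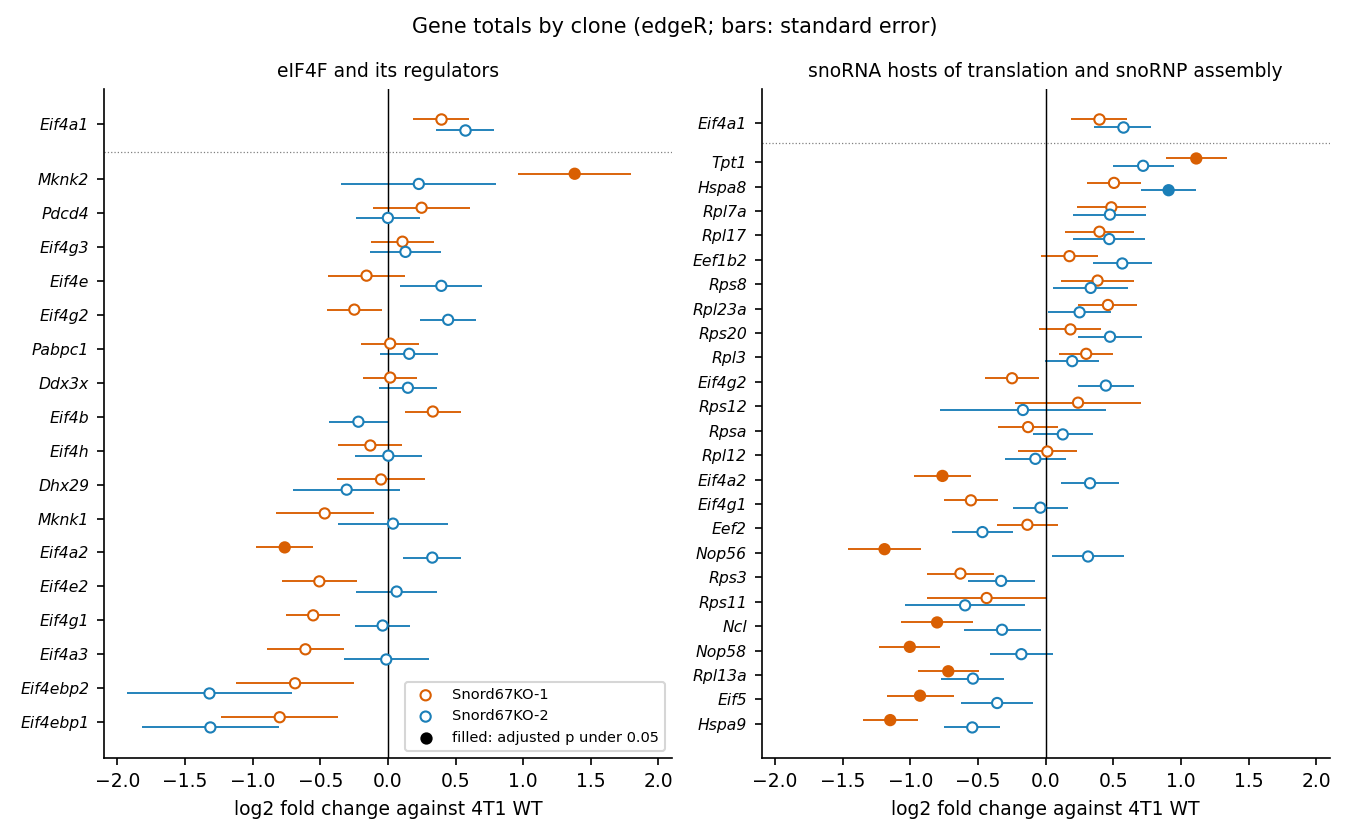
Log2 fold change of gene totals against 4T1 WT with standard errors (edgeR, 3 libraries per genotype) for eIF4F and its regulators on the left and for snoRNA hosts on the right, with Eif4a1 on top of each. Filled points have an adjusted p under 0.05, and Eif4a1 lies at 0.39 in Snord67KO-1 and 0.57 in Snord67KO-2 with open points.

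The genes whose levels followed Eif4a1 most closely over the 9 libraries were Pdia3 (Pearson r = 0.959), Gnas (0.948), Hsp90ab1 (0.948), Dnajc10 (0.932) and Smarcd1 (0.932), in log2(CPM + 1) among 1366 other genes with at least 10 counts in every library. These coefficients are descriptions over libraries that share genotype and depth. Pdia3, a disulfide isomerase of the endoplasmic reticulum, averaged 106 ± 6.28, 184 ± 14.5 and 164 ± 39.4 CPM by genotype. The high base and the rest of Eif4a1 had a lower r of 0.321.

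Library totals ranged from 491836 to 737219 counts in 4T1 WT and Snord67KO-1 and from 212463 to 423278 in Snord67KO-2. A base with 0 counts could still have up to 4.07 to 14.1 CPM, the limit that a count of 0 allows by library, so the low counts in Snord67KO-2 carry the largest error. The epithelial markers Krt8, Krt18, Krt7, Epcam and Cdh1 had counts in all 9 libraries. Ptprc, Pecam1, Col1a1 and Adipoq had 0 to 10 counts in a library. The ranges overlapped, since Ptprc and Pecam1 had 10 and 9 counts in Snord67KO-1 replicate 1 and Epcam had 5 in Snord67KO-1 replicate 2. No replicates were within counting noise of each other, since the chi-square of each pair over genes was 1.28 to 12.4 per degree of freedom. The deleted snoRNA, Snord67, had 1 count over the 9 libraries, in a Snord67KO-1 library, so its loss was not detectable at this depth.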

How the data were processed

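RibOxi-seq counts of the 9 oxidized libraries of 4T1 cells were used, with 3 libraries per genotype grouped by the sample labels. As deposited by the authors, a value is the raw count of read 3′ ends at a genomic position, without normalization. According to the methods, the authors trimmed reads with cutadapt, joined read pairs with pear and mapped them before counting, and the submitters' processing notes also list STAR and mm10, although the methods name the build m39. Positions were placed on GRCm38 with GENCODE M21, which gave the exons and the transcript sequences. No genome of this build was used, so no sequence of introns outside the snoRNAs is shown. Handling of duplicates and of reads with several matches is not given in the sources used here. Whether PCR copies were removed is therefore not known, and all limits and binomial intervals (exact, 95%) cover counting error only.

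The gene, its high base and the gene lists were chosen with earlier results of these data known. Counts were summed by gene and chromosome. Genes and positions that reached 10 counts in 3 or more libraries entered TMM-normalized quasi-likelihood fits of edgeR over all 9 libraries, with contrasts for the average of both clones, each clone against 4T1 WT and Snord67KO-2 against Snord67KO-1. A second edgeR fit used log(other counts of the gene + 1) as offset, for genes with 50 or more other counts. The log2 Nm score was tested with limma. P-values were adjusted by Benjamini-Hochberg over all features with a threshold of 0.05. Differences in mean shares were tested by exact two-sided permutation of libraries, whose smallest p is 0.1 for 3 against 3 libraries. Standard errors for edgeR were derived from the F statistic. Genes of the lists were named in the average of both clones when called or among the 3 with the smallest p, and by clone after their values were seen. A snoRNA was called box C/D-like when TGATGA after A or G lay in its first 20 bases and CTGA in its last 15, and otherwise H/ACA-like when ACA or ATA lay 3 bases before its end, read on the transcript's strand. The tests were checked on simulated data with known changes. Alternatives covered normalization, count filters, DESeq2, marked positions, leaving out single replicates, and a replicate block. The software was Python 3.11.15 (scipy 1.17.1, numpy 2.4.6, pandas 2.3.3, matplotlib 3.10.9) and R 4.3.3 (DESeq2 1.42.0, limma 3.58.1, edgeR 4.0.16).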

Additional observations from a re-analysis of the deposited data

Results flagged for a closer look

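The effects of the clones differed for 2 genes of the lists by the direct contrast of Snord67KO-2 with Snord67KO-1. Eif4a2, the paralog of Eif4a1, had a log2 difference of 1.09 between the clones (adjusted p = 0.0121 with edgeR), which was 0.69 without TMM (adjusted p = 0.0949 with edgeR). Nop56 had a log2 difference of 1.50 (adjusted p = 0.00872 with edgeR), which was 1.11 without TMM (adjusted p = 0.0520 with edgeR) and had an adjusted p of 0.0579 with edgeR without Snord67KO-2 replicate 2. Both genes were lower in Snord67KO-1 than in Snord67KO-2 in all 3 libraries.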

How the results depend on the processing

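The Eif4a1 total and the total without the high base stayed on the same side of the threshold under all 17 alternatives each, and their direction turned for Snord67KO-2 against Snord67KO-1 with library totals without TMM (log2 fold change -0.21, and -0.12 without the base), where the median over all genes was -0.41. DESeq2 called the high base (2.30 for the average, 2.69 for Snord67KO-1) and gave it no adjusted p for Snord67KO-2, and no other alternative called it. Genes called numbered 727, 1134, 196 and 242 in the main tests, 302, 682, 29 and 242 without TMM, 389, 575, 144 and 110 with DESeq2, and 1077, 2057, 436 and 462 when every gene with a count was tested. Without TMM, 179 of 302 calls for the average were higher. For positions, DESeq2 called 14, 13, 24 and 1, and testing every position with a count gave 501, 16, 435 and 10, of which 499, 12, 434 and 10 were lower, whereas 13 of the 14 DESeq2 calls were higher. The share of the high base in both clones was 7.86 to 10.8 percentage points higher with 1 replicate left out. The unadjusted p of the permutation test ran from 0.0357 to 0.143 and was under 0.05 in 1 of the 9 cases, without Snord67KO-2 replicate 3. These p-values are not independent of the choice of the base.

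The intronic share rests on few counts and turned often. For the average it was -0.0727 percentage points with marked positions left out and 9.07 with the high base kept in, and for Snord67KO-1 it was 11.01 with the base kept in, 0.55 in log2 of the share plus 0.1% and 0.797 with the exons of the coding transcript only, which was chosen after seeing the data. For Snord67KO-2 the last gave -0.115, and against Snord67KO-1 it gave -0.913, next to -3.88 with the base kept in and -0.54 in log2. With 1 replicate left out it ran from -0.426 to 0.228 for the average, from -0.491 to 0.162 for Snord67KO-1, from -0.417 to 0.539 for Snord67KO-2 and from -0.357 to 0.599 between the clones, and the marked share between the clones ran from -1.77 to 0.352. The cause was not tested. Of the genes called for the average, Tpt1 and Hspa9 kept their calls in all 17 alternatives, which were chosen for the list genes after seeing the data, whereas Rpl13a lost its call in 9 and Hspa8 in 3. Between the clones, Eif4a2 lost its call in 4 and Nop56 in 2. In Snord67KO-1, the call was lost in 9 for Rpl13a and Ncl, 6 for Eif4a2 and Mknk2, 4 for Eif5 and 1 for Nop56 and Nop58, and in Snord67KO-2 in 5 for Hspa8.

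Libraries with the same replicate number did not deviate together in every pair (correlations of -0.147 to 0.326). The highest were 0.326 and 0.277, for 4T1 WT with Snord67KO-1 at replicates 2 and 3. Whether the replicate numbers pair the libraries is not settled by this, and the main tests used no replicate block. With a replicate block the log2 fold change for the average was 0.49 for the Eif4a1 total (adjusted p = 0.0955 with edgeR), 0.34 without the base, 2.42 for the base and 1.73 relative to the rest, and edgeR called 860 genes, Eif4ebp1 included (adjusted p = 0.0228), and 0 positions, with 153 below an unadjusted p of 0.05. Depth limits single positions, since 1 count equals 1.36 to 4.71 CPM by library.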

Other observations

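A high share of counts at 1 base was not rare among genes with at least this many counts. Eif4a1 ranked 157 by counts, so the other genes of this set had at least its depth. Of the 157 genes with at least as many counts as Eif4a1, Eif4a1 included, 60 had an unmarked position with at least as large a share of their counts, and the median share of the top position was 4.91%. Among unmarked positions outside Rn45s, the ribosomal RNA precursor, the high base ranked 436 of 1192138 by counts.

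Exonic ends of Eif4a1 lay at C in 27.5% and at T in 23.9% of the counts, against 22.3% and 25.9% of the bases of the transcript. For the 297 H/ACA-like snoRNAs with annotated 3′ ends, 23.4% of 171 counts within 30 bases of the end lay after it.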
